A study of Homo sapiens with 12 samples.

Results

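Epithelial cells that line ducts and mucosal surfaces secrete proteins that act on microbes and on the proteases released in inflammation, and some of these proteins are made in larger amounts during the acute-phase response. The genes described here are 8 of that kind, chosen by symbol with earlier results of these samples known, out of 26506 genes in the table. DEFB1 encodes beta-defensin 1, an antimicrobial peptide made by kidney tubules and other epithelia. SAA1 and SAA2 encode the acute-phase serum amyloid A proteins. LCN2 encodes lipocalin 2 (NGAL), which binds iron-carrying bacterial siderophores and is used as a urinary marker of tubular injury. SLPI, PI3 (elafin) and WFDC2 (HE4) belong to the family with whey acidic protein (WAP) domains, and SLPI and PI3 inhibit neutrophil serine proteases. CLU encodes clusterin, a secreted chaperone and another marker of tubular injury. Because the members were picked for their response, their values are given as a description, with no p-value.

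RNA was sequenced from HK-2, an immortalised line of human kidney tubule epithelial cells, in 4 groups of 3 samples. All groups carry short hairpin RNAs: Luc976, taken as the control because its name points to luciferase; shVHL61, against VHL, which marks HIF transcription factors for degradation; shKIM1-A1, against KIM-1, an injury-induced surface receptor of tubule cells (gene HAVCR1); and shVHL61-KIM1A1, which carries both. Values with the VHL hairpin or with the KIM-1 hairpin are those of the groups that carry it alone, unless both are named. No treatment is given. One hairpin per target and one cell line were used, and the sources used here do not say if a group's 3 samples were grown as separate cultures. Errors and p-values cover only how these samples vary, and that variation may be technical.

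Depth ran from 16500965 to 21089716 expected counts per sample. Levels are given as CPM, counts scaled to 1e6 per library after TMM, and as TPM, which also takes gene length into account, where genes are compared with each other. VHL was at 53.2 ± 0.376 CPM (SD, n = 3) in Luc976, 38.1 ± 1.07 with the VHL hairpin, 59.5 ± 1.88 with the KIM-1 hairpin and 41.6 ± 2.92 with both, and HAVCR1 was at 121 ± 10.8, 143 ± 10.4, 57.0 ± 4.45 and 83.7 ± 14.1 CPM. VHL fell by 0.48 (log2) in shVHL61 against Luc976 (edgeR adjusted p = 8.48e-05) and HAVCR1 fell by 1.08 in shKIM1-A1 (edgeR adjusted p = 1.49e-06). HAVCR1 was higher in the cells with both hairpins than in shKIM1-A1, by 0.55 (log2; edgeR adjusted p = 0.000476). The libraries were put into 2 sets of 6 by the sign of the trend of their deviations from the group mean with transcript GC content. Deviations cancel within a group, so having 1 or 2 libraries of each group in each set follows from the way the sets were made. DEFB1, SAA1, SAA2, LCN2 and WFDC2 had the same direction of change in both sets in each of the 5 comparisons, while CLU did not in 3 of them. A set compares only 1 or 2 libraries per group. Of 7 general kidney epithelial markers, 6 were above a mean of 1 TPM in each group, among them PAX8, EPCAM, CDH1, KRT8 and KRT18, whereas of 15 proximal tubule markers only GGT1, MME, MIOX and GATM were, and LRP2, SLC22A6 and SLC22A8 had no count in any sample. Of 15 markers of the more distal nephron, SCNN1A, KRT7 and KRT19 were above 1 TPM in each group and UMOD and AQP2 had no count.

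Of the 8 genes, 7 had at least 1 count and 6 passed the filter on low counts. In Luc976 CLU was the most abundant per length, at 301 ± 16.4 TPM, followed by WFDC2 at 179 ± 10.7, SAA1 at 79.4 ± 5.55, DEFB1 at 15.3 ± 0.745, LCN2 at 10.6 ± 0.971 and SAA2 at 9.67 ± 0.799. The ranges of LCN2 and SAA2 overlapped, and the other neighbours in this order did not. With both hairpins the order changed: WFDC2 stood first at 439 ± 31.9 TPM, above CLU at 285 ± 11.1 and SAA1 at 219 ± 11.2, and DEFB1 followed at 94.3 ± 7.20, SAA2 at 46.1 ± 2.68 and LCN2 at 16.9 ± 0.697. WFDC2 thereby moved from rank 878 to rank 328 of 26506 genes by mean TPM, and DEFB1 from rank 6941 to rank 1698.

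**Figure D1:**
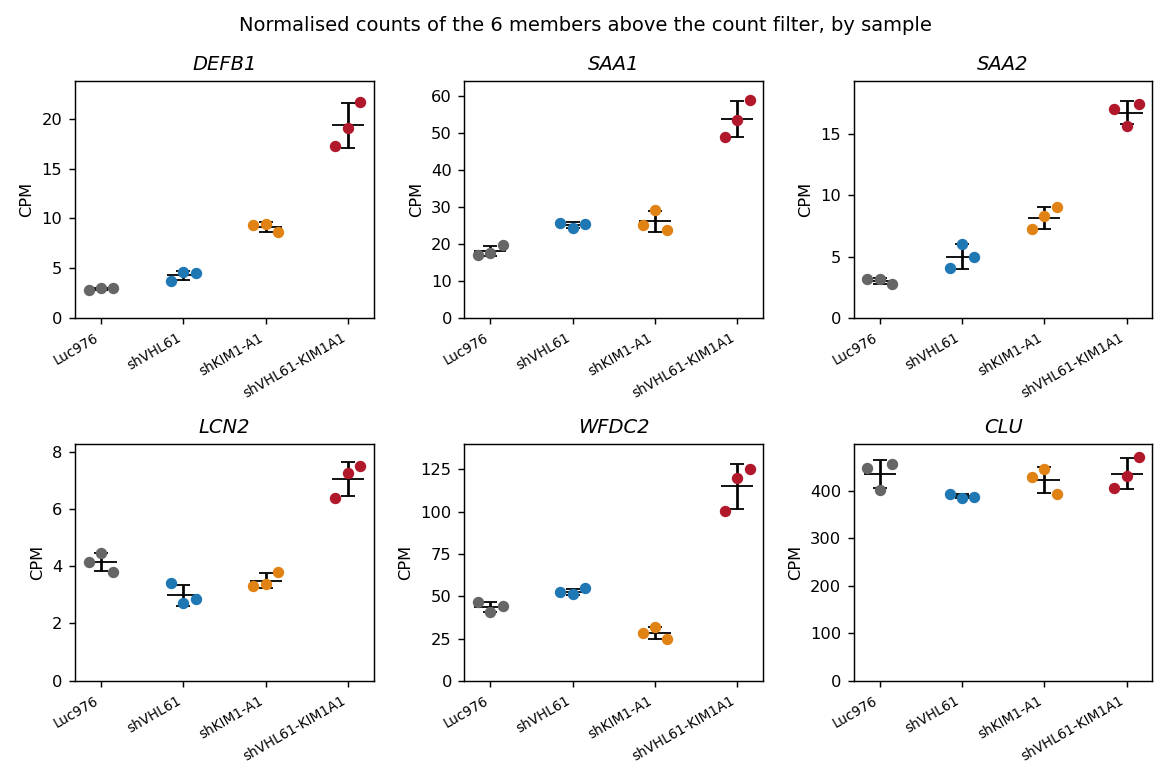
CPM (linear axis from 0) of the 6 genes that passed the filter on low counts, with 1 point per sample, the mean as a horizontal bar and the SD as whiskers (n = 3). DEFB1, SAA1, SAA2, LCN2 and WFDC2 were highest in all 3 samples with both hairpins, while CLU stayed between 385 and 470.5 CPM in all 12 samples.

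DEFB1 had few counts in control cells and went up in steps through the groups. Its CPM was 2.79, 3.04 and 2.97 in the Luc976 samples, from 50 to 60 counts each. It was 3.74, 4.61 and 4.50 in shVHL61 and 9.32, 9.49 and 8.61 in shKIM1-A1. In shVHL61-KIM1A1 it was 17.2, 19.1 and 21.7, from 300 to 409 counts. No 2 groups overlapped. The log2 fold change over Luc976 was 0.54 (SE 0.14) with the VHL hairpin, 1.64 (SE 0.13) with the KIM-1 hairpin and 2.72 (SE 0.12) with both, a fold of 6.59. Adding the KIM-1 hairpin to the VHL hairpin gave 2.18 (SE 0.11), and adding the VHL hairpin to the KIM-1 hairpin gave 1.08 (SE 0.10). Among 14230 genes tested, the fold of DEFB1 ranked 22 from the highest with both hairpins against Luc976 and 30 against shVHL61.

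The serum amyloid A pair was higher in each hairpin group than in Luc976. SAA1 was at 17.0, 17.5 and 19.7 CPM in Luc976, 25.7, 24.2 and 25.3 with the VHL hairpin, and 25.1, 29.3 and 23.9 with the KIM-1 hairpin. With both hairpins it reached 48.9, 53.3 and 58.8 CPM. The single-hairpin groups overlapped each other and were all above Luc976 and below the samples with both hairpins. Its log2 fold change over Luc976 was 0.47 (SE 0.10) with the VHL hairpin, 0.53 (SE 0.09) with the KIM-1 hairpin and 1.57 (SE 0.09) with both.

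SAA2 was the lesser member of the pair and had the steeper gradient. It was at 3.16, 3.19 and 2.74 CPM in Luc976, 4.03, 6.02 and 4.97 with the VHL hairpin, 7.21, 8.28 and 9.0 with the KIM-1 hairpin, and 17.0, 15.6 and 17.4 with both hairpins. The 4 groups did not overlap. The log2 fold change over Luc976 was 0.72 (SE 0.16), 1.43 (SE 0.15) and 2.46 (SE 0.14) in the same order, the last a fold of 5.49.

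SAA1 and SAA2 are neighbouring genes with nearly the same coding sequence. Over the 369 coding bases of the annotated SAA1 and SAA2 transcripts compared there were 11 differences (97.0% identity). Of 320 windows of 50 bases in the SAA2 coding sequence, 137 were also found unchanged in the SAA1 transcript. Reads from such stretches cannot be placed in one gene, and the counts of both are estimates that need not be whole, so each separate value is uncertain. Summed, the pair was at 21.1 ± 1.18 CPM in Luc976, 30.1 ± 0.330 with the VHL hairpin, 34.2 ± 2.88 with the KIM-1 hairpin and 70.3 ± 5.27 with both hairpins (SD, n = 3). The sum changed by 0.51 (SE 0.08), 0.70 (SE 0.08) and 1.74 (SE 0.08) on the log2 scale over Luc976, without overlap between any of the groups.

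A larger share of the pair's counts was assigned to SAA2 with the KIM-1 hairpin. It was 15.7%, 15.4% and 12.2% in the Luc976 samples and 13.6%, 19.9% and 16.4% in shVHL61, which overlapped. It was 22.3%, 22.1% and 27.4% in shKIM1-A1 and 25.8%, 22.7% and 22.9% with both hairpins, which overlapped as well, and every sample with the KIM-1 hairpin was above every sample without it. The 95% Wilson interval of a single sample covers counting error only. It spanned 12.4% to 19.6% in the first Luc976 sample and 23.3% to 28.4% in the first sample with both hairpins. Some intervals overlapped across this split. That of the second shVHL61 sample, 16.9% to 23.3%, overlapped 19.2% to 25.8% in the first shKIM1-A1 sample. It also overlapped 20.3% to 25.2% in the second sample with both hairpins. The neighbours gave few counts. The liver-associated constitutive form SAA4 had 1, 0, 7 and 14 rounded counts over the 3 samples of Luc976, shVHL61, shKIM1-A1 and shVHL61-KIM1A1. The read-through gene SAA2-SAA4, which overlaps SAA2, had 13, 9, 25 and 40, and the pseudogene SAA3P had none in 12 samples. These sums hide uneven samples. SAA2-SAA4 had 11.89, 0 and 28.39 expected counts in the samples with both hairpins, and all SAA4 counts in shKIM1-A1 came from 1 sample. SAA2-SAA4 did not pass in shVHL61 (edgeR adjusted p = 0.812) or in shKIM1-A1 (edgeR adjusted p = 0.459).

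**Figure D2:**
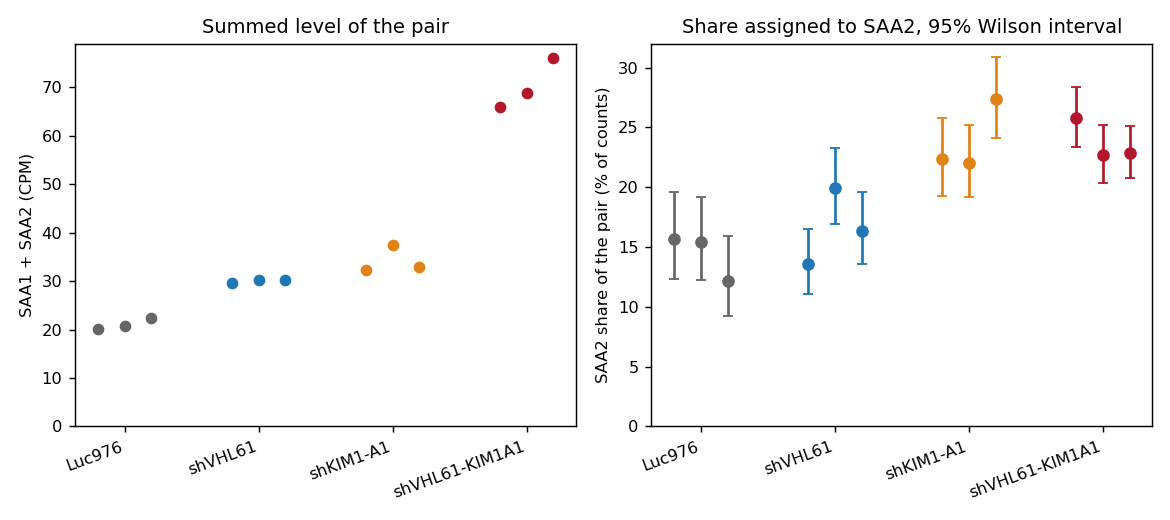
Left, summed CPM of SAA1 and SAA2 per sample. Right, percent of the pair's expected counts assigned to SAA2 per sample, with 95% Wilson intervals for counting error. The points of the samples carrying the KIM-1 hairpin lie between 22.1% and 27.4% and the others between 12.2% and 19.9%. Some of the intervals overlap across this split.

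LCN2 was highest with both hairpins and lowest with the VHL hairpin alone. It was at 4.16, 4.46 and 3.81 CPM in Luc976, 3.40, 2.71 and 2.85 with the VHL hairpin, and 3.32, 3.37 and 3.79 with the KIM-1 hairpin. With both hairpins it was at 6.37, 7.26 and 7.48 CPM, above every other sample. Counts were low, from 54 to 141 per sample. The highest shKIM1-A1 sample lay just below the lowest Luc976 sample, and the single-hairpin groups overlapped. The log2 fold change over Luc976 was −0.47 (SE 0.14) with the VHL hairpin, −0.25 (SE 0.14) with the KIM-1 hairpin and 0.76 (SE 0.13) with both. Against shVHL61 the cells with both hairpins were higher by 1.23 (SE 0.13) and against shKIM1-A1 by 1.01 (SE 0.13).

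WFDC2 was lowest with the KIM-1 hairpin alone and highest with both hairpins. It was at 46.4, 40.7 and 44.4 CPM in Luc976, 52.5, 51.2 and 54.6 with the VHL hairpin, and 28.5, 31.5 and 24.5 with the KIM-1 hairpin. With both hairpins it was at 100.2, 119.9 and 125 CPM. The 4 groups did not overlap, with shKIM1-A1 lowest. The log2 fold change over Luc976 was 0.27 (SE 0.09) with the VHL hairpin, −0.64 (SE 0.10) with the KIM-1 hairpin and 1.39 (SE 0.09) with both. Adding the VHL hairpin to the KIM-1 hairpin gave 2.03 (SE 0.10), a fold of 4.09, and adding the KIM-1 hairpin to the VHL hairpin gave 1.13 (SE 0.09).

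What the KIM-1 hairpin did on top of shVHL61, less what it did alone, came to 1.76 (log2; SE 0.13) for WFDC2 and 1.48 (SE 0.19) for LCN2, whose samples were all below Luc976 with the KIM-1 hairpin alone and all above shVHL61 when it was added to that hairpin. It was 0.57 (SE 0.13) for SAA1, 0.54 (SE 0.18) for DEFB1, 0.31 (SE 0.20) for SAA2 and 0.21 (SE 0.09) for CLU. For this difference 10.2% of all tested genes passed in the positive direction and 9.52% in the negative direction.

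The upstream sequences of LCN2 and WFDC2 are shown as the members matched by symbol in the RefSeq promoter table. They are the 250 bases before the annotated start, 5′ to 3′ on the plus strand, credited to RefSeq with build GRCh38.p14, at chr9:128149203-128149452 for LCN2 and chr20:45469503-45469752 for WFDC2. Capitals mark matches on either strand to the motifs named after them.
LCN2: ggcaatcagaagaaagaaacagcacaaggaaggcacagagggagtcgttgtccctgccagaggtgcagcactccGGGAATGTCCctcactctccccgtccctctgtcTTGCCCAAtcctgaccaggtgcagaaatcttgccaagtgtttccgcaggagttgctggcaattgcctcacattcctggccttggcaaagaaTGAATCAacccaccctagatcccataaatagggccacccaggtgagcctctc
WFDC2: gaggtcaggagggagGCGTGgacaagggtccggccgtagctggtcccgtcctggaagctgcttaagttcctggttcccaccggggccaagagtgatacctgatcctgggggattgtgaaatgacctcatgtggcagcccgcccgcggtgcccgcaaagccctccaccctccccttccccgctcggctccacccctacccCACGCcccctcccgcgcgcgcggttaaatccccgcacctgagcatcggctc
In LCN2 the matches were an NF-kB motif (GGGNNTNNCC) starting 176 bases before the start, a C/EBP motif (TTGCNNAA) at 143 and an AP-1 motif (TGANTCA) at 52, none overlapping another. In WFDC2 they were 2 hypoxia response elements (ACGTG or GCGTG), at 235 and, on the reverse strand, at 51. These motifs stood in 19.7% (NF-kB), 9.05% (C/EBP), 6.57% (AP-1) and 43.2% (hypoxia response element) of 35116 promoter windows of this length. The STAT motif TTCNNNGAA, in 6.57%, and the TATA box TATAAA, in 10.7%, matched neither window. A match is a description of letters and shows no binding.

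The other WAP members were at or near the limit of detection. SLPI had 6, 3 and 0 counts in Luc976, 3, 2 and 0 with the VHL hairpin, 1, 0 and 0 with the KIM-1 hairpin, and 1, 4 and 7 with both hairpins, 27 in all. The summed level was 0.162 CPM in Luc976, with an exact Poisson 95% interval of 0.0741 to 0.307, and 0.229 with both hairpins (0.118 to 0.399), and these intervals overlapped. It was 0.0835 CPM in shVHL61 (0.0271 to 0.195), which overlapped with both, and 0.0172 in shKIM1-A1 (0.000434 to 0.0956), whose interval lay below that with both hairpins. SLPI was past the threshold in this last comparison when no filter on low counts was used. PI3 had 0 counts in 12 samples, which allows a level of up to 0.0133 CPM over all libraries (3 counts). In the genome WFDC2, SLPI and PI3 lie near each other in the WAP gene cluster.

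CLU did not share the pattern. It was at 447, 402 and 455 CPM in Luc976, 393, 385 and 387 with the VHL hairpin, 429.6, 446 and 392 with the KIM-1 hairpin, and 405, 431 and 470.5 with both hairpins. The samples of shVHL61 were all below those of Luc976 and of shVHL61-KIM1A1, and every other pair of groups overlapped. The log2 fold change over Luc976 was −0.16 (SE 0.07), −0.04 (SE 0.07) and 0.00 (SE 0.07) with the VHL hairpin, the KIM-1 hairpin and both. As a share of the level, the SD between samples was 1.07% with the VHL hairpin, 7.55% with both hairpins, 6.53% with the KIM-1 hairpin and 6.56% in Luc976. At the mean counts of the groups, counting error alone came to between 1.10% and 1.14%, which was above the SD in shVHL61 and below it in the other groups. On the TPM scale the level with both hairpins was below that in shKIM1-A1, with a log2 difference of −0.14 on log2(TPM + 0.1), where the CPM difference was 0.04. TPM scaling moved the median of all genes in that comparison by −0.18, and the difference between hairpin effects by −0.15.

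**Figure D3:**
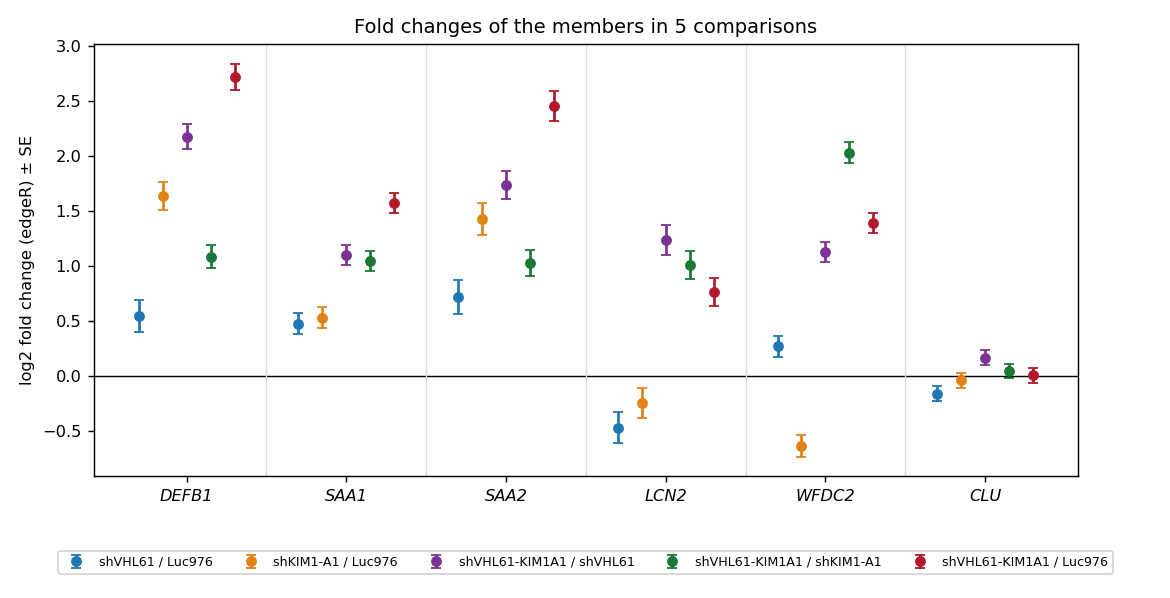
Log2 fold changes from the edgeR fit with SE as whiskers, for the 6 genes in 5 comparisons, the first group named over the second. With both hairpins DEFB1 and SAA2 reach 2.72 and 2.46 over Luc976, LCN2 and WFDC2 lie below 0 with the KIM-1 hairpin alone, and CLU stays within 0.17 of 0.

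Counting the genes past an adjusted p of 0.05 over all tested genes, 3 members were higher and 1 lower with the VHL hairpin, where 7.21% of all genes were higher and 9.44% lower. With the KIM-1 hairpin 3 were higher (DEFB1, SAA1 and SAA2) and 1 lower (WFDC2), with 14.8% and 16.6% of all genes. With both hairpins 5 of the 6 were higher and 0 lower in each comparison. The background was 21.2% higher and 21.3% lower against shVHL61, 21.1% and 20.9% against shKIM1-A1, and 25.2% and 26.3% against Luc976. The members were chosen from these comparisons, so nothing is read from their counts. Comparisons with a common group share its samples. Of all genes past the threshold, 43.3%, 47.2%, 49.9%, 50.1% and 48.9% were higher in the 5 comparisons in this order, and with limma on log2(TPM + 1) 28%, 68.7%, 40%, 20% and 36.7%. The higher count with the VHL hairpin is DEFB1, SAA1 and SAA2, and DEFB1 no longer passed without Luc976 replicate 1 or shVHL61 replicate 2 or 3. WFDC2 passed as well with no filter, with DESeq2, under each limma setting, with the library set in the model and with 2 groups only. The lower count is LCN2, which no longer passed with DESeq2, with the replicate block, with 2 groups only, or without any 1 of the Luc976 samples or shVHL61 replicate 2 or 3. In the authors' deposited table the folds of shVHL61-KIM1A1 over Luc976 were 6.53 for DEFB1, 5.46 for SAA2, 2.96 for SAA1, 2.62 for WFDC2, 1.69 for LCN2 and 1.00 for CLU.

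DEFB1 and SAA2 had the most similar group patterns among the members. Each gene's 4 group means of log2(CPM + 0.5) were centred on their mean. The root mean square distance between DEFB1 and SAA2 was 0.16 log2 units, against 0.34 between SAA1 and SAA2 and 0.84 between DEFB1 and WFDC2. Of 12339 genes compared over the 4 groups, the nearest to SAA2 was CXCL14, an epithelial chemokine, at a distance of 0.0350, followed by MAL at 0.103. CXCL14 and MAL were also the nearest to DEFB1, at 0.170 and 0.186. In Luc976 CXCL14 was at 0.591 ± 0.217 CPM, near the offset of 0.5, which narrows its differences between groups. Its distances therefore depend on that offset. The edgeR log2 fold change with the KIM-1 hairpin alone was 1.79 for CXCL14 and 1.43 for SAA2. On top of shVHL61 it was 2.05 and 1.74. The nearest to SAA1 was IL1R2, the decoy receptor of interleukin 1, at 0.0560; to LCN2 the carboxypeptidase gene CPA4, at 0.0537; and to WFDC2 PTGIS, which encodes prostacyclin synthase, at 0.0567. For CLU, whose groups were nearly level, 2165 genes lay within 0.1.

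Most of the other antimicrobial and mucosal defence genes had no count, and most of those tested were higher with both hairpins. Of 58 in the table, 39 had no count in any sample, including the inducible defensins DEFB4A and DEFB103A, the calprotectin genes S100A8 and S100A9, LTF and RNASE7. A gene could pass the count filter through its highest group alone, which can tilt counts and medians toward that group. The list was also chosen with earlier results known, so both are a description. Of the 12 tested, 8 rose and 0 fell against shVHL61, where 21.2% of all genes rose and 21.3% fell. Their median log2 fold change was 1.09, against 0.01 over all tested genes. CXCL14 rose from 1.18 ± 0.137 to 4.94 ± 1.05 CPM (log2 2.05, SE 0.24; edgeR adjusted p = 5.13e-06). ADM, the vasoactive and antimicrobial peptide adrenomedullin and a HIF target, rose from 26.5 ± 2.45 to 65.6 ± 5.04 CPM (edgeR adjusted p = 1.24e-08), and the mucosal chemokine gene CCL28 from 8.99 ± 0.984 to 18.2 ± 1.04 (edgeR adjusted p = 2.01e-06). Against shKIM1-A1, 7 rose and 0 fell, beside 21.1% and 20.9% of all genes. Among the 7 was the mucin gene MUC1, by 1.5 (SE 0.13, edgeR adjusted p = 2.57e-07). With single hairpins 1 rose and 0 fell in shVHL61 (MUC1), beside 7.21% and 9.44% of all genes. In shKIM1-A1 4 rose and 1 fell, beside 14.8% and 16.6%. CD55, an inhibitor of complement, was lower there by 0.55 (edgeR adjusted p = 0.000643).

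The limits given for the antimicrobial list, from the count filter and from the choice of genes, hold for this list and those below. Their counts are likewise a description. Of 9 other WAP-domain and epithelial protease inhibitors tested, out of 30 in the table, 6 rose and 0 fell against shVHL61, where 21.2% of all genes rose and 21.3% fell. Among the 6 were SERPINB1, an inhibitor of neutrophil elastase, by 0.68 (SE 0.08, edgeR adjusted p = 6.34e-06), SPINT1 by 0.66 (edgeR adjusted p = 7.03e-06) and WFDC3 by 0.63 (edgeR adjusted p = 0.000278). Against shKIM1-A1, 6 rose and 1 fell, beside 21.1% and 20.9% of all genes. The gene that fell was ANOS1, which encodes a WAP-domain matrix protein: it was at 28 ± 1.21 CPM in Luc976, 55.2 ± 1.22 in shKIM1-A1 and 23.1 ± 1.75 with both hairpins. In shVHL61 only TIMP1 was lower, by 0.24 (edgeR adjusted p = 0.0157), and 0 rose, where 9.44% of all genes were lower and 7.21% higher.

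Other acute-phase genes did not move as one. Of 16 tested, 6 rose and 1 fell against shVHL61, and 7 rose and 3 fell against shKIM1-A1. Over all genes 21.2% rose and 21.3% fell in the first comparison, and 21.1% and 20.9% in the second. LRG1 rose by 1.17 (SE 0.11) against shVHL61 (edgeR adjusted p = 7.15e-07), and CFB, complement factor B, by 1.02 (edgeR adjusted p = 2.69e-06). PTX3, a pentraxin, fell by 1.05 (edgeR adjusted p = 5.95e-05). With single hairpins 4 and 7 of the 16 fell, in shVHL61 and shKIM1-A1, and 3 and 4 rose. Over all genes 9.44% and 16.6% fell, and 7.21% and 14.8% rose. The complement genes C4A and C4B, near-identical copies whose reads cannot be separated, fell by 0.96 and 0.84 in shVHL61 and by 1.37 and 1.29 in shKIM1-A1. CFB was at 8.35 ± 0.987 CPM in Luc976, 3.68 ± 0.562 in shKIM1-A1 and 17.4 ± 1.54 with both hairpins. CRP, SAA3P and ORM1 had no count in any sample.

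**Figure D4:**
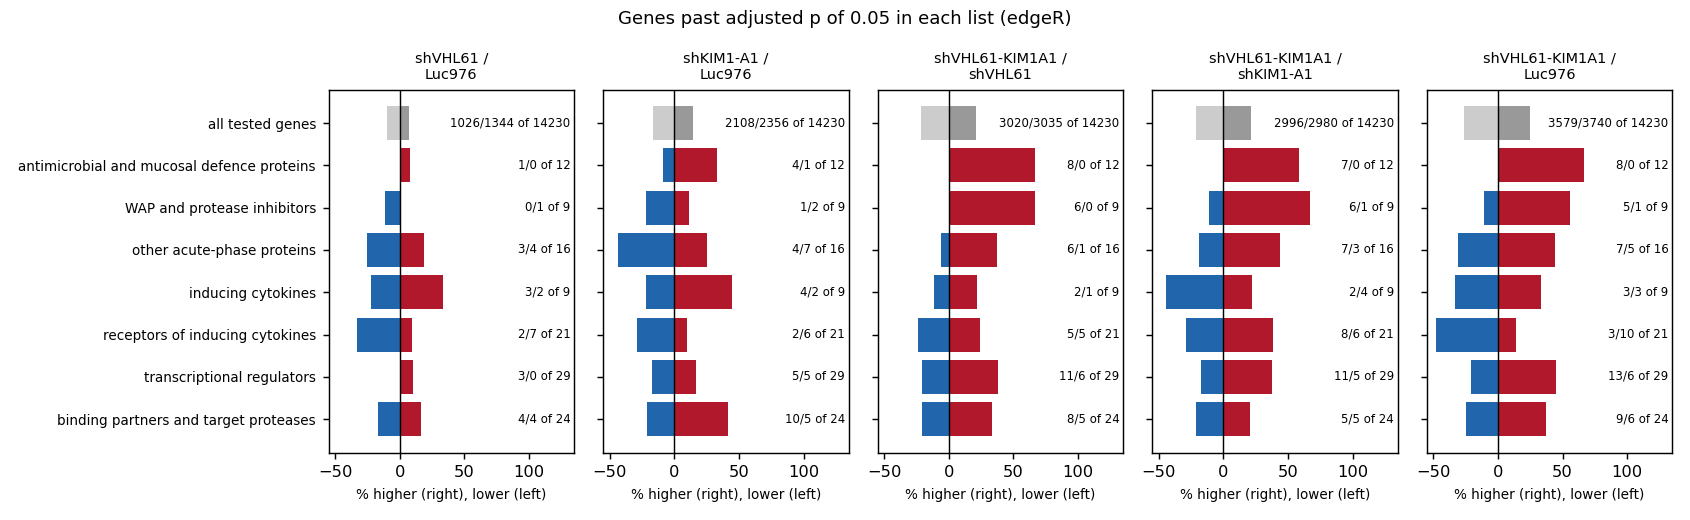
Percent of the tested genes of each list with an edgeR adjusted p below 0.05, higher to the right and lower to the left, with the numbers higher/lower of tested; grey bars give all 14230 tested genes. In the antimicrobial list 8 of 12 were higher with both hairpins against shVHL61, where 21.2% of all genes were.

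Cytokines that induce these genes elsewhere differed between the hairpins. IL6 was at 26.6 ± 1.39 CPM in Luc976, 39.7 ± 3.36 with the VHL hairpin, 59.7 ± 2.17 with the KIM-1 hairpin and 51.0 ± 2.07 with both hairpins. It rose by 0.58 in shVHL61 (edgeR adjusted p = 6.83e-05) and by 1.16 in shKIM1-A1 (edgeR adjusted p = 2.00e-08). OSM (oncostatin M) had 2 counts in Luc976 and 3 in shKIM1-A1 over 3 samples, against 507 in shVHL61 and 716 with both. The ratio of shVHL61 to Luc976 was 235, with an exact binomial 95% interval of 64.8 to 1948 that covers counting error only. OSM was highest with both hairpins, at 13.6 ± 2.09 CPM against 8.46 ± 0.807 in shVHL61 (log2 0.68, edgeR adjusted p = 0.000832). IL11 fell by 1.08 in shVHL61 and by 1.03 in shKIM1-A1. IL1B was not tested, at 0.191 ± 0.0357 CPM with both hairpins and 0.0572 ± 0.0596 in Luc976. IL17A and IL22 had no count. The relation of any of these cytokines to the members' levels was not tested.

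Among the receptors of these cytokines, 5 of 21 rose and 5 fell against shVHL61, and 8 rose and 6 fell against shKIM1-A1. The first is 23.8% each way, near the 21.2% and 21.3% of all genes. The second is 38.1% and 28.6%, beside 21.1% and 20.9% of all genes. IL1R2 rose by 0.98 (edgeR adjusted p = 8.67e-07) and IL22RA1, a subunit of the IL-22 receptor, by 1.03 (edgeR adjusted p = 0.00226) against shVHL61. IL22RA1 had fallen in shVHL61 by 0.98 (edgeR adjusted p = 0.00888). It was at 2.45 ± 0.210 CPM in Luc976, 1.23 ± 0.329 in shVHL61 and 2.52 ± 0.272 with both hairpins, near the Luc976 level. IL1R1 rose by 1.38 against shKIM1-A1 (edgeR adjusted p = 4.23e-08), while TLR2, which senses bacterial lipopeptides, fell by 1.63 (edgeR adjusted p = 1.69e-06).

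Of 29 transcriptional regulators, 11 rose and 6 fell against shVHL61, and 11 rose and 5 fell against shKIM1-A1. The first is 37.9% and 20.7%, beside 21.2% and 21.3% of all genes. The second is 37.9% and 17.2%, beside 21.1% and 20.9%. CEBPD, which drives acute-phase genes, was at 25 ± 1.90 CPM in Luc976, 21.3 ± 1.10 with the VHL hairpin, 24.3 ± 2.54 with the KIM-1 hairpin and 39.4 ± 1.85 with both hairpins, a rise of 0.89 over shVHL61 (edgeR adjusted p = 8.81e-07). CEBPB rose by 0.63 (edgeR adjusted p = 9.39e-05) and ELF3, an epithelial ETS factor, by 0.68 (edgeR adjusted p = 4.69e-06) in the same comparison. None of the 3 passed the test with a single hairpin. NFKBIZ, the cofactor of NF-kB that LCN2 and DEFB4A need in response to interleukin 1, fell against shVHL61 by 0.21 (edgeR adjusted p = 0.0112) and against shKIM1-A1 by 0.53 (edgeR adjusted p = 4.88e-06). STAT3 changed by 0.08 against shVHL61 and did not pass (edgeR adjusted p = 0.207), and rose by 0.21 against shKIM1-A1 (edgeR adjusted p = 0.00239).

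**Figure D5:**
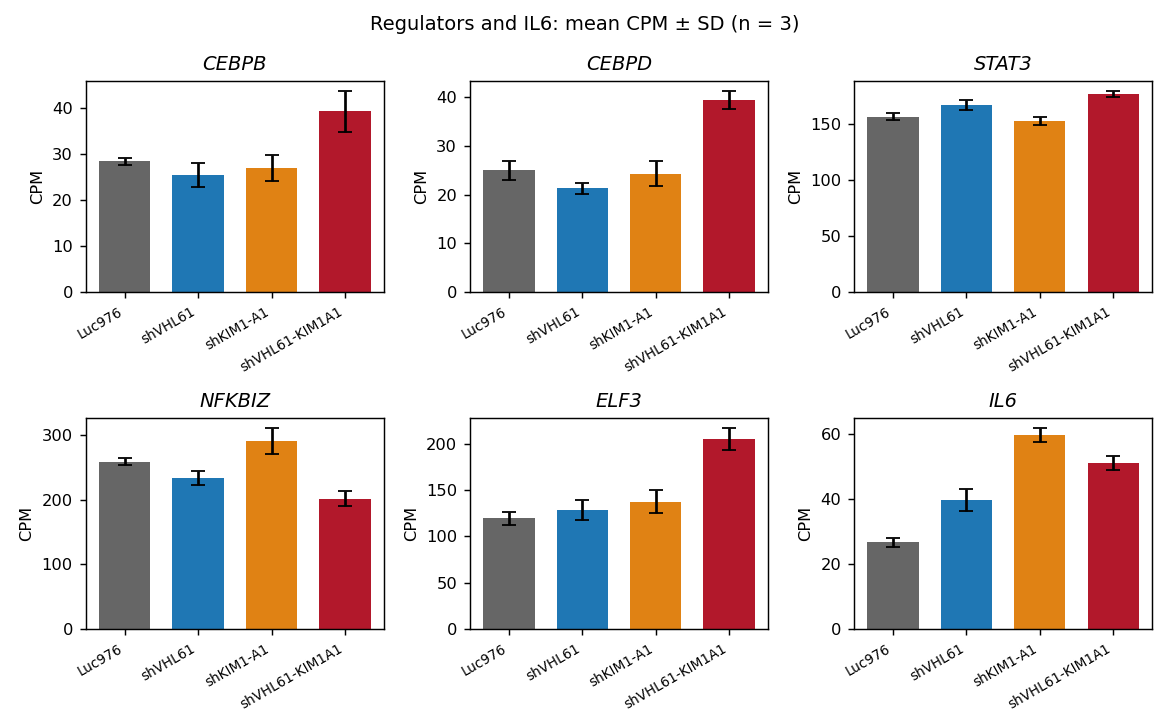
Mean CPM (bars from 0) and SD (n = 3) of 5 regulators and IL6 in the 4 groups. CEBPB, CEBPD and ELF3 are highest with both hairpins, NFKBIZ is lowest there, and IL6 is highest in shKIM1-A1.

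Of 24 tested genes for proteins that bind the members, or that they inhibit, 8 rose (33.3%) and 5 fell (20.8%) against shVHL61. Over all genes 21.2% rose and 21.3% fell there. Against shKIM1-A1, 5 rose and 5 fell (20.8% each), near the 21.1% and 20.9% of all genes. SLC22A17, a receptor for lipocalin 2, was at 2.00 ± 0.296 CPM in Luc976, 0.820 ± 0.0872 with the VHL hairpin, 3.93 ± 0.114 with the KIM-1 hairpin and 1.96 ± 0.563 with both hairpins. MMP9, the gelatinase that lipocalin 2 binds, rose in shVHL61 by 0.85 (edgeR adjusted p = 0.000127) and in shKIM1-A1 by 0.72 (edgeR adjusted p = 0.000276), and with both hairpins fell by 1.32 against shVHL61 (edgeR adjusted p = 6.30e-07), so that it ran opposite to LCN2. PRSS8, an epithelial serine protease, rose by 0.90 against shVHL61 (edgeR adjusted p = 1.02e-05).

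Markers of neutrophils and hepatocytes, cells that make much of the body's lipocalin 2 and serum amyloid A, gave little signal. The 8 neutrophil markers summed to 0.03 to 0.16 TPM in Luc976 and to 0.25 to 1.06 with both hairpins, none above a mean of 1 TPM, with S100A8, S100A9, S100A12 and FCGR3B at 0 counts in every sample. The 5 hepatocyte markers summed to at most 0.34 TPM, with APOB and TTR at 0. The 6 markers of other immune cells summed to 131.66 to 138.34 TPM in Luc976 and 163.72 to 168.08 with both hairpins, nearly all from CD68 and CD14, with CD3E at 0. The 6 fibroblast markers summed to 104.07 to 119.71 TPM in Luc976 and 130 to 155.44 with both hairpins, with LUM and COL1A1 above 1 TPM in each group. All samples are HK-2 cells by their titles, so these transcripts are not read as a sign of other cells. The relation of any of these markers to the members' levels was not tested. In these bulk samples fewer cells with a transcript and less of it per cell cannot be told apart.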

How the data were processed

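The members and the 7 lists of related genes were chosen with earlier results of these data known. The deposited expected counts (estimated reads per gene) were rounded to whole numbers. The deposited TPM served for levels between genes, and the deposited FPKM only as an alternative level. The authors' deposited fold is a linear ratio over Luc976. Libraries came from total RNA with a TruSeq kit, per the labels' protocols. The submitters' processing notes name Bowtie 0.12.2 and, without a role, the mouse builds mm8 and mm9. The human build is not given in the sources used here, nor is the quantifier.

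Of 26506 genes, 14230 passed filterByExpr (minimum count 10). One edgeR 4.0.16 quasi-likelihood model with TMM scaling was fitted to all 12 samples, with 8 residual degrees of freedom, and two-sided p-values were adjusted by Benjamini-Hochberg over all tested genes, with a threshold of 0.05. Depth of 16500965 to 21089716 counts limits the precision of genes with few counts, and intervals and floors (3 counts) cover counting error only. The script was tested on simulated data. Named genes were all members, VHL and HAVCR1, up to 3 genes per list and comparison with the largest fold among those past the threshold at an average log2 CPM of 1 or more, and 8 regulators and cytokines whatever their result. Of these, 120 of 236 listed genes were tested. Alternatives were other scalings, no filter, DESeq2 1.42.0, limma 3.58.1 on log2 TPM, 2 groups only, a replicate block, the library set as a term and leaving out each sample. Promoter sequences were matched by symbol for 2 of the 8 members. A few genes in the lists are not reported here by name.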

Additional observations from a re-analysis of the deposited data

Results flagged for a closer look

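These genes stood out because the KIM-1 hairpin changed them differently on top of shVHL61 than on its own (the first effect less the second, log2). For LCN2 (1.48 on the log2 scale) and WFDC2 (1.76) all samples moved in opposite directions in the 2 backgrounds, and the difference was not tested because the genes were chosen from these data. For LCN2 the change with the KIM-1 hairpin alone was small, at −0.25 (SE 0.14), and did not pass the threshold. Its highest shKIM1-A1 sample was at 3.79 CPM and its lowest Luc976 sample at 3.81. The other genes passed the edgeR test of the difference itself, with adjusted p from 3.74e-07 (CFB) to 0.0368 (TLR2). Of all tested genes 10.2% passed in the positive and 9.52% in the negative direction. The lists of these other genes were also chosen with earlier results known. Most of them were named for a large fold in the comparisons that make up this difference, so nothing is read from how many passed.

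Among defence genes and inhibitors, the log2 difference was 1.22 for ADM, 0.78 for MUC1, 0.49 for CCL28, 0.59 for CD55, 0.71 for WFDC3, 0.47 for SPINT1, 0.52 for SPINT2, 0.55 for SERPINB1 and −1.12 for ANOS1. Among acute-phase genes it was 2.20 for CFB, 1.62 for C4A, 1.36 for C4B, 0.66 for LRG1 and −1.35 for PTX3. Among cytokines and receptors it was 0.89 for IL11, −0.80 for IL6, −0.72 for TNFSF10, −0.93 for CSF2, 1.06 for IL1R1, 0.48 for IL1R2, 1.02 for LIFR, −0.77 for TLR2 and −1.30 for TLR3. Among regulators it was 0.93 for CEBPD, 0.70 for CEBPB, 0.68 for SOCS3, 0.47 for ELF3, 0.47 for GRHL1, 0.29 for EPAS1 and −0.38 for NFKBIZ. Among binding partners it was −2.04 for MMP9, −1.03 for TGFBR1 and 0.47 for ANXA2. With TPM scaling the median of all genes moved by −0.15 for this difference.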

How the results depend on the processing

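The log2 fold changes of DEFB1, SAA1, SAA2, LCN2 and WFDC2 kept their sign in the 5 comparisons under each setting run, and those of CLU did not in 3 of them. The number of members lower in shVHL61 against Luc976 was 1 (LCN2), and it was 0 with DESeq2, with the replicate block and with only the 2 groups compared, and 2 with limma on log2(TPM + 1), limma on log2(TPM + 0.1) and a library set term. It ranged from 0 to 1 with 1 sample left out, was 0 without Luc976 replicate 1 or 3 or shVHL61 replicate 2 or 3, and was CLU in place of LCN2 without Luc976 replicate 2. The number higher was 3, and 2 to 4 over the other settings. With both hairpins the number higher was 5, and 6 against shVHL61 (CLU added) with upper-quartile scaling, a library set term, 2 groups only and without shVHL61-KIM1A1 replicate 1, and 6 against shKIM1-A1 (SLPI added) with no filter. Against shKIM1-A1 the number of members lower with both hairpins was 0, and 1 (CLU) under each limma setting. Of the 120 related genes tested, those higher in shVHL61 numbered 16, and 27 once a library set term was added. Those lower in shVHL61 numbered 18, and 11 to 18 with 1 sample left out, the lowest without shVHL61 replicate 3. Those lower with both hairpins against shKIM1-A1 numbered 24, and 47 under each limma setting and 39 with the library set. The upper-quartile scaling made 59.3% of all calls in shKIM1-A1 higher, against 47.2%. The causes were not tested. Replicate numbers did not pair the samples, with correlations of same-numbered deviations from −0.54 to 0.41, and the replicate block changed no other count of members. SLPI and PI3 are limited by depth.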
